A study of Mus musculus with 5 samples.

Results

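The 10 genes described here are those of the principal plasma apolipoproteins: Apoa1, Apoa2, Apoa4, Apoa5, Apob, Apoc1, Apoc2, Apoc3, Apoe and Apom. They were chosen by symbol from the 32285 genes measured, and all 10 were detected in every library. Their mRNA was followed in isolated mouse hepatocytes by droplet-based single-cell RNA sequencing, in which unique molecular identifiers (UMIs) count individual mRNA molecules. All libraries came from livers of male wild-type (WT) C57BL/6J mice on normal chow. The mice had first been trained for 3 days, with 16 h without food overnight and 8 h of feeding by day. On the last day they were given chow together with a 20% sucrose drink, and the fed library was taken after 4 h of feeding, at clock hour 13. Food and the sucrose drink were then withdrawn, and libraries followed after 4 h (clock hour 17), 8 h (clock hour 21), 16 h (clock hour 5) and 24 h (clock hour 13). Time without food and hour of day therefore cannot be told apart, except between the 24 h and the fed library. By its title, the series asks how gluconeogenic gene expression in hepatocytes changes in space when mice pass from feeding to fasting and starvation. Each time label was 1 library without replicates, and the labels do not say how many animals went into one. Differences below therefore describe 5 libraries, with 95% intervals that cover counting error only, and no test across animals was possible.

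Apolipoproteins are the protein coat of the lipoprotein particles that carry triglyceride and cholesterol in blood, and the liver makes most of them. Apob is the scaffold of very-low-density lipoprotein, and Apoa1 and Apoa2 are the main proteins of high-density lipoprotein. Apoe is the ligand by which remnant particles are taken up by receptors. The small C apolipoproteins set how fast triglyceride is cleared: Apoc2 activates lipoprotein lipase, whereas Apoc1 and Apoc3 slow clearance. Apoa5 favours triglyceride clearance, Apoa4 is a lipid-regulated apolipoprotein that the liver and intestine secrete, and Apom carries sphingosine 1-phosphate on high-density lipoprotein.

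Of the 10 genes, 4 lie side by side in a cluster of 43.3 kb on chromosome 9 (Apoa1, Apoc3, Apoa4 and Apoa5, chr9:46228580-46271919 in GRCm38, GENCODE M21). A second cluster of 27.6 kb on chromosome 7 (chr7:19671579-19699188) holds Apoc2, Apoc1 and Apoe beside Apoc4. Apoa2 lies on chromosome 1 (chr1:171225054-171226379), Apob on chromosome 12 (chr12:7977648-8016835) and Apom on chromosome 17 (chr17:35128997-35132050). RefSeq promoter windows (GRCm38.p6) were at hand for 8 of the 10 genes, all but Apoc1 and Apoc3. The stretches just upstream of Apoa5, Apoa4 and Apoa1 are shown 5′ to 3′ because the first 2 genes differed most between libraries, while the third, in the same cluster and on the same plus strand, did not reach that size. Capitals mark the letters TATAAA, and all 3 stretches lie before the first exon of their gene. Each ends before the earlier of the RefSeq and GENCODE starts, so they differ in length, with 250, 102 and 200 bases in the order shown. A search for letters thus covers less of Apoa4 and Apoa1. The Apoa4 stretch overlaps Gm47528, a gene model on the opposite strand, and no gene of GENCODE M21 overlaps the other two.

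Apoa5 (chr9:46268358-46268607, plus strand): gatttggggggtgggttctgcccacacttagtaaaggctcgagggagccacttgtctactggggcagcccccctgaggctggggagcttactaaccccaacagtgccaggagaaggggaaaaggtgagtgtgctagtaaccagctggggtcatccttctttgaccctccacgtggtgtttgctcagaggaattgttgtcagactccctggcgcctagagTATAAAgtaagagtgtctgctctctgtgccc
Apoa4 (chr9:46240594-46240695, plus strand): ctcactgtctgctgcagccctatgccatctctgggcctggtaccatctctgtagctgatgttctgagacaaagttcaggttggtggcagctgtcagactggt
Apoa1 (chr9:46228380-46228579, plus strand): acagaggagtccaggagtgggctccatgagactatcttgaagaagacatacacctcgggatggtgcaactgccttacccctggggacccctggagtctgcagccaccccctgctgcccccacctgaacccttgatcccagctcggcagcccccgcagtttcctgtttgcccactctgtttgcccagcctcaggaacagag
In these stretches TATAAA was found once, 31 bases before the first of the Apoa5 starts that RefSeq gives. On both strands of the full windows of 300 bases, 5 of the 12 windows of these genes held TATAAA, against 13.6% of 32817 RefSeq windows. They belong to 4 of the 8 genes (Apoa2, Apoa5, Apob and Apoe), and the windows of Apoa5 overlap each other. The nuclear receptor half-site AGGTCA was in 2 of the 12 windows, of Apoa2 and of Apoc2, against 16.3% of windows. The 9-letter elements TGACCTTTG and CAAAGTCCA and the cAMP response element TGACGTCA were in none of the 12 windows of these genes, against 0.478%, 0.475% and 1.79% of all windows. Several genes have more than 1 window, and a match of letters is a description only.

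Each library held 10000 barcodes and between 40002260 and 68330252 UMIs. Hepatocytes were barcodes with at least 1000 UMIs and 500 genes, with 2 to 30% of UMIs from mitochondrial (mt-) genes, and poor in markers of other cell types. This left 7646 hepatocytes at 0 h and 4560, 2704, 9079 and 4555 after 4, 8, 16 and 24 h. Their median UMI counts were 5537, 12132, 15060, 4406 and 9038, and their median mt- shares 12%, 19.1%, 9.8%, 13.8% and 16.3%. The labelled cell type was borne out by its markers, with 9 of 10 hepatocyte markers at 1000 CPM or more in each library, where CPM is UMIs per 1000000 non-mitochondrial UMIs. Endothelial markers summed to 5.71 to 35.3 CPM over 15 genes, macrophage markers to 0.355 to 11 CPM over 12 genes and erythroid markers to 0 to 14.7 CPM over 4 genes. Cholangiocyte markers summed to 66.5 to 114 CPM over 6 genes, nearly all from Sox9 and Tstd1, while Epcam, Krt19 and Krt7 were at 0.237 CPM or less. Between 18 and 42 hepatocyte barcode sequences per library also occurred in another library. The libraries stood apart in the barcodes that the mt- minimum removed: 5345 at 4 h and 5400 at 24 h had under 2% mt- UMIs, against 2172, 576 and 234 at 0, 8 and 16 h. Of the barcodes past the UMI and gene minimum these were 53.5% and 54.0%, against 21.7%, 17.3% and 2.5%. That minimum left 3325 barcodes at 8 h and 9363 to 10000 in the other libraries.

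The apolipoprotein genes were among the most abundant messages of these cells. Together they made up 4.95% of the non-mitochondrial UMIs of hepatocytes in the fed library and 4.13%, 4.71%, 3.65% and 5.79% after 4, 8, 16 and 24 h. The share was lowest at 16 h, with 3.14% to 4.42% over other settings, and highest at 24 h, with 4.54% to 7.65%. The range of the fed library, 4.34% to 6.07%, overlapped both. In each library 6 or 7 of the 10 were among the 100 most abundant genes. In this 3′ assay a molecule counts once whatever its length, so the levels below are not divided by length. Apoe and Apoc1 were the highest in each library, followed by Apoa1 at 8 h and by Apoa2 in the others, and Apoa4 and Apom were the lowest.

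**Figure D1:**
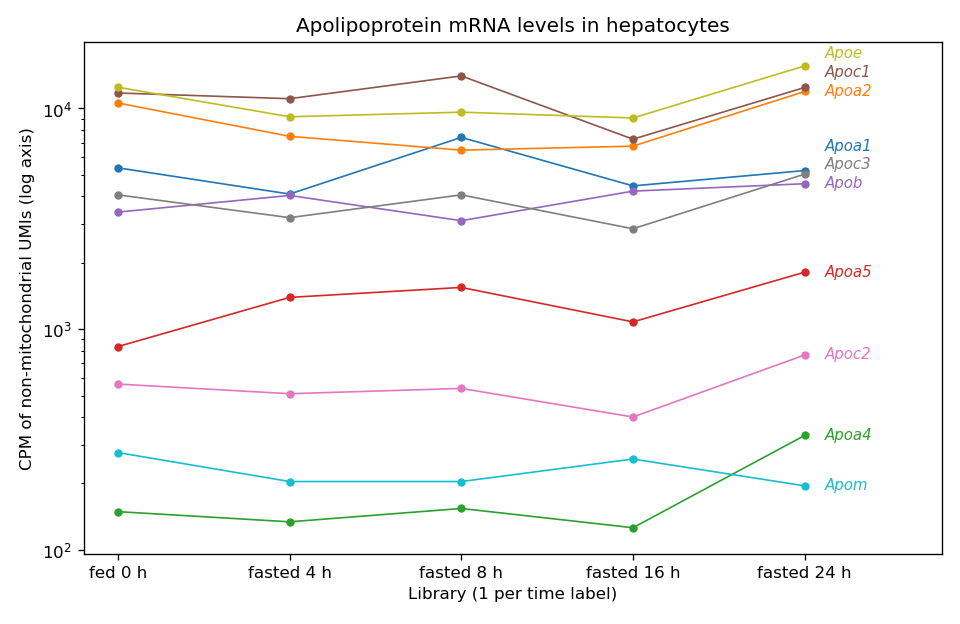
CPM of the 10 apolipoprotein genes (log axis) in hepatocytes of the 5 libraries, with exact Poisson 95% intervals that are smaller than the points. The line of Apoa4 lies between 126 and 154 CPM up to 16 h and reaches 330 at 24 h, above that of Apom.

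Apoa4 was the gene with the widest range. It had 149 CPM in the fed library (95% interval 145 to 153) and 134, 154, 126 and 330 after 4, 8, 16 and 24 h (324 to 336 at 24 h). The first 4 libraries lay close together, and the 24 h library stood above them all. Its log2 ratio of 24 h to fed was 1.14 (1.10 to 1.19), and that to the 16 h library was 1.39 (1.34 to 1.44). The log2 ratio to fed was 0.89 when hepatocytes with 10 to 20% mt- UMIs alone were used, and 0.74 with 2 to 15%. It was 0.93 without hepatocytes that were poor in genes, meaning under 460 genes in 800 UMIs. It stayed at 2-fold or more in 11 of 16 other settings and was above 0 in all 16.

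Apoa5 was higher in each fasted library than in the fed one. It had 834 CPM in the fed library (825 to 843) and 1393, 1546, 1079 and 1813 after 4, 8, 16 and 24 h (1800 to 1827 at 24 h). The fed library was the lowest and the 24 h library the highest, with the 16 h library nearest to fed. The log2 ratios to fed were 0.74, 0.89, 0.37 and 1.12 in time order, the last with an interval of 1.10 to 1.14. All 4 were above 0 under each of the 16 other settings, and the 24 h ratio stayed at 2-fold or more in 14 of them. The smallest, 0.76, came with barcodes of 0 to 30% mt- UMIs.

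The main proteins of high-density lipoprotein did not share a profile. Apoa1 had 5384 CPM in the fed library and 4095, 7396, 4459 and 5232 after 4, 8, 16 and 24 h, so that the 8 h library was the highest. Its log2 ratio of 8 h to fed was 0.46 (0.45 to 0.47), with the same sign in all 16 other settings, and the 24 h ratio of -0.04 changed sign in 6 of them. Apoa2 had 10591 CPM in the fed library and 7479, 6475, 6750 and 11944 after 4, 8, 16 and 24 h. The fed and 24 h libraries, both taken at clock hour 13, were the highest. Its log2 ratio was -0.71 at 8 h and -0.65 at 16 h, negative in all 16 other settings, and 0.17 at 24 h, where it turned to -0.11 without hepatocytes poor in genes. Apom had 276 CPM in the fed library and 204, 204, 258 and 195 after 4, 8, 16 and 24 h. Its log2 ratio of 24 h to fed was -0.50 (-0.54 to -0.46), but 0.09 among hepatocytes of 3000 to 10000 UMIs.

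Apob, the scaffold of very-low-density lipoprotein, had the second narrowest range after Apom. It had 3392 CPM in the fed library and 4036, 3101, 4222 and 4561 after 4, 8, 16 and 24 h. The 8 h library was the lowest and the 24 h library the highest, 1.47-fold apart. The log2 ratios to fed were 0.25, -0.13, 0.32 and 0.43. Those at 16 and 24 h had the same sign in all 16 other settings, while those at 4 and 8 h changed sign in 2 settings each.

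Apoe had 12483 CPM in the fed library and 9172, 9622, 9056 and 15593 after 4, 8, 16 and 24 h. It was the second most abundant gene of all at 24 h. The 3 middle libraries were close to each other and lay below both libraries of clock hour 13. The log2 ratios to fed at 8 and 16 h, -0.38 and -0.46, kept their sign in all 16 other settings. That at 4 h, -0.44, kept it in 14 and was 0.17 among hepatocytes of 3000 to 10000 UMIs. The log2 ratio of 24 h to fed was 0.32 (0.32 to 0.33), but 0.04 with 10 to 20% mt- UMIs and -0.07 without hepatocytes that were poor in genes. It was 0.99 in hepatocytes of 3000 to 10000 UMIs, the upper end of the range over settings.

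The C apolipoproteins were lowest in the 16 h library. Apoc1 had 11755 CPM in the fed library and 11074, 14047, 7258 and 12450 after 4, 8, 16 and 24 h. Apoc3 had 4061, 3201, 4060, 2851 and 5041 CPM in the same order, and Apoc2, the activator of lipoprotein lipase, had 564, 510, 539, 400 and 764 CPM. At 16 h their log2 ratios to fed were -0.70, -0.51 and -0.50, negative in each of the 16 other settings. Apoc4, which neighbours Apoc2 and Apoc1, was likewise lowest at 16 h with 1162 CPM and highest at 24 h with 2245. The serum amyloid A genes Saa1 and Saa2, acute-phase apolipoproteins, were called higher in the 16 h library, with 4887 and 4953 CPM against 385 and 219 in the fed one. Of 10 acute-phase genes, 4 were at least 2-fold higher at 16 h than in the fed library, against 3.38% of all genes, and their part in the level of the C apolipoproteins was not tested.

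Calls were made at 2-fold or more with at least 50 CPM in either library. No apolipoprotein gene of the 10 was called at 4, 8 or 16 h against fed. Over all genes, 5.85% were called higher and 5.91% lower at 4 h, 8.07% and 11.7% at 8 h, and 3.38% and 4.09% at 16 h, so that a count of 0 of 10 lies near this background. At 24 h, 2 of 10 were higher (Apoa4 and Apoa5), against 6.76% of 2975 genes, and 0 of 10 were lower, against 10.6%. The median log2 ratio of the 10 genes was -0.25, -0.03, -0.37 and 0.32 in time order, beside -0.03, -0.04, 0.01 and -0.03 over all genes. All 4 of these comparisons share the fed library. Scaling by TMM factors moved the median of all genes to 0.09 at 4 h and 0.12 at 8 h, and the medians of the 10 genes moved with it, to -0.13 and 0.13, so that the sign at 8 h flipped.

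Comparisons of neighbouring libraries do not all use the fed one. Between 4 and 8 h, 0 of 10 genes were called, against 1.14% of all genes higher and 2.22% lower. Between 8 and 16 h again 0 of 10 were called, against 11.3% higher and 9.74% lower, with Apoc1 just short of 2-fold at a log2 ratio of -0.95 and past it in 4 other settings. Between 16 and 24 h, 1 of 10 (Apoa4) was higher, against 7.52%, and 0 of 10 lower, against 6.95%. At a threshold of 1.5-fold, 7 of 10 were higher at 24 h than at 16 h, against 18.5% of all genes, and 0 lower, against 19.5%. These were Apoa2 (log2 ratio 0.82), Apoa4 (1.39), Apoa5 (0.75), Apoc1 (0.78), Apoc2 (0.93), Apoc3 (0.82) and Apoe (0.78). Apoa4, Apoc1 and Apoc2 stayed past 1.5-fold in all 16 other settings. Without hepatocytes poor in genes the ratios of Apoa2, Apoc3 and Apoe were 0.45, 0.58 and 0.29, each under the threshold. Apoa5 was under it in 4 settings, at the lowest 0.30 with 0 to 30% mt- UMIs, and Apoe in 3.

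The same threshold of 1.5-fold was applied to the other comparisons. Apoa5 was higher than fed at 4, 8 and 24 h, 1 of 10 genes at 4 and 8 h against 13.8% and 18.1% of all genes, and 2 of 10 with Apoa4 at 24 h, against 17.0%. Apoa2 was lower at 8 h and, with Apoc1, at 16 h, which made 1 and 2 of 10 genes against 23.1% and 13.2%. None was lower than fed at 4 h (16.3%) or 24 h (20.2%), and none was higher at 16 h (10.6%). Apoa1 was higher at 8 h than at 4 h, 1 of 10 against 5.47%, and lower, with Apoc1, at 16 h than at 8 h, 2 of 10 against 21.8%. No gene of the 10 was lower at 8 h than at 4 h (8.83%) or higher at 16 h than at 8 h (26.2%).

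**Figure D2:**
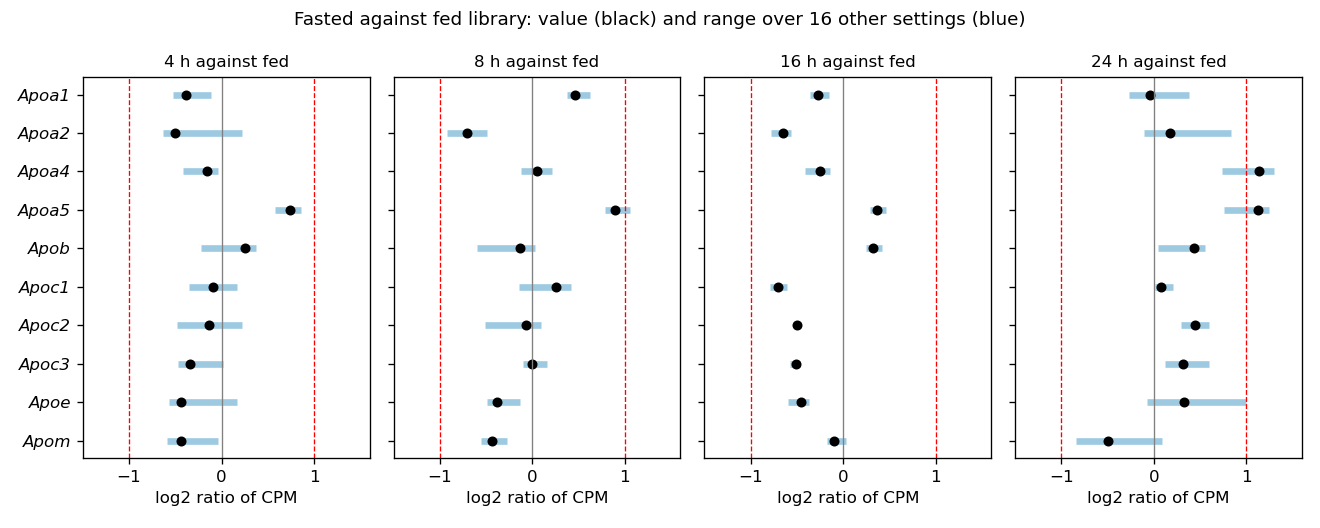
Log2 ratio of CPM of each fasted library to the fed library (black points) with the lowest and highest value over 16 other settings (blue bars), where red dashed lines mark 2-fold. At 24 h Apoa4 and Apoa5 lie past the line with bars that reach below it, and the bar of Apoe runs from -0.07 to 0.99.

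Within a library, hepatocytes differed widely in how much of their RNA was apolipoprotein message, and for part of the 10 genes this went with how many genes the cells had at equal depth. From each hepatocyte with enough of them 800 UMIs of genes outside the 10 were drawn (9077 of 9079 cells at 16 h and all cells of the other libraries), the genes found among them were counted, and each library was split into 5 equal parts by that number. In the 24 h library Apoe had 40543 CPM in the part with fewest genes (median 400) and 8512 CPM in the part with most (median 537), which is 4.76-fold. The same ratio was 2.81 in the fed library and 4.37, 1.30 and 1.76 after 4, 8 and 16 h. Apoa2 followed Apoe, with ratios of 2.64, 4.30, 1.32, 1.73 and 3.96 in time order. Apoa4 and Apom had ratios of 3.34 and 3.72 at 24 h, whereas those of Apoa5, Apob and Apoc1 were 1.48, 1.48 and 1.37. These 3 were not higher in gene-poor cells throughout, with ratios of 0.917 for Apoa5 and 0.903 for Apob at 8 h and 0.931 for Apoc1 at 16 h. The trend was not particular to apolipoproteins. Alb, the albumin gene and a hepatocyte marker, had ratios of 2.12, 2.28, 1.55, 2.31 and 2.57 in time order. At 8 and 16 h these lay above those of Apoe and Apoa2. Alb was itself among the genes drawn, and what this adds to its ratios was not tested.

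The share of such cells differed between libraries. Hepatocytes with under 460 genes in 800 UMIs, a limit set after seeing the data, were 18.6% of the fed library and 19.5%, 2.55%, 14.5% and 32.1% of the 4, 8, 16 and 24 h libraries. The libraries with most of them were also those with the highest mt- shares within the part with fewest genes, 21.1% at 24 h and 18.1% at 4 h. The part of cell quality in these levels was not tested. In the part with most genes, the 10 genes together made up 4.29% of UMIs in the fed library and 3.44%, 4.16%, 3.47% and 4.13% after 4, 8, 16 and 24 h, so that fed was the highest and 4 h the lowest. Apoe in that part was 9545 CPM in the fed library and 6643, 8503, 8434 and 8512 after 4, 8, 16 and 24 h, so that the 24 h library no longer stood above fed. Apoa4 in the same part was 99.9, 83.4, 91.6, 67.3 and 217 CPM, and the 24 h library stayed the highest. Apoa5 there was 799, 1387, 1618, 1077 and 1766 CPM, again lowest in the fed library and highest at 24 h. The part with most genes held 47.5%, 43.9%, 66.3%, 70.9% and 19.4% cells of the central part of the lobule axis, described below, in time order, and what this adds to these levels was not tested.

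**Figure D3:**
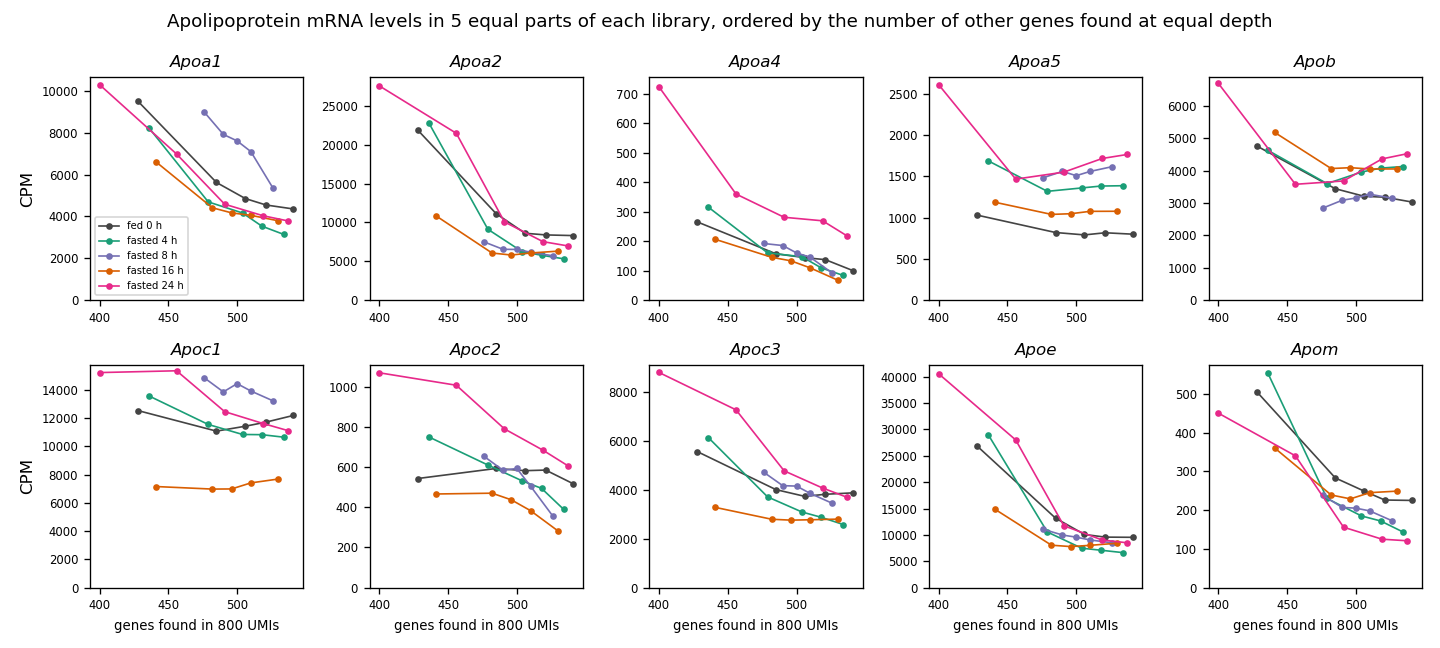
CPM of each gene in 5 equal parts of each library (colours), placed by the median number of other genes found in 800 UMIs. Apoe and Apoa2 drop steeply from left to right in the fed, 4 h and 24 h libraries, while Apoa5 is lowest in the fed library in each of the 5 parts.

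Across single hepatocytes thinned to 1000 UMIs each, Apoe and Apoa2 were the messages with the most spread, by the ratio of variance to mean, in each library but that of 8 h, where Apoc1 and Apoa1 had more. The median cell at 24 h held 13 Apoe UMIs per 1000 and the cell at the 90th percentile 47, against 11 and 28 in the fed library and 9 and 16 at 8 h. Apoa2 and Apoe counts correlated over cells with Pearson's r of 0.67 in the fed library and 0.87, 0.31, 0.64 and 0.88 after 4, 8, 16 and 24 h (7646, 4556, 2679, 8962 and 4555 cells). Cells of a library share its preparation, and r was 0.48, 0.74, 0.32, 0.34 and 0.75 among cells with 460 genes or more. Over all 45 pairs of the 10 genes the median r was 0.05 to 0.15.

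The rarer messages were seen in part of the cells. After thinning, a UMI of Apoa4 was found in 13.3% of fed hepatocytes (exact interval 12.6% to 14.1%) and 10.5%, 12.5%, 12.1% and 24.1% after 4, 8, 16 and 24 h (22.9% to 25.4% at 24 h). The 24 h share was the highest, and the order of the other 4 was not that of their CPM values, so that nothing is read from it. Unthinned shares were 41.9%, 46.4%, 65.5%, 32.7% and 65.4%. None of 133 endothelial-marker-rich barcodes of the fed library had an Apoa4 UMI after thinning, which allows a share of up to 2.74% (exact upper bound) and limits cells with a UMI, not cells with the message. Apoa5 was found in 52.7% of fed hepatocytes and 67.6%, 75.4%, 65.0% and 74.3% after 4, 8, 16 and 24 h, against 12% of those endothelial-marker-rich barcodes in the fed library and 20.6% of 34 such barcodes at 16 h. The median depths were 5537 UMIs in fed hepatocytes and 1769 in the barcodes beside them, and 4442 and 1231 at 16 h. For Apoc1 and Apoa2 the background was complete, with a UMI in 100% and 99.2% of them, so that a share of cells says nothing about these genes.

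The position of a hepatocyte along the lobule was read from Cyp2f2, a portal gene, and Cyp2e1, a central gene. Each library was cut into 3 equal parts by the share of Cyp2e1 in the UMIs of both genes, and the central part was set against the portal part. The cut divides a continuous range, and no place in tissue was measured. A hepatocyte without a UMI of either gene scores 0.5, so shallow cells that lack both markers can enter the central part. What this adds to the contrasts below was not tested. The central part was also shallower, with median UMI counts of 3050 against 6628 in the fed library and 3512 against 20068, 9936 against 19242, 3867 against 4561 and 2854 against 15011 in the fasted ones, in time order. The part of depth in the contrasts below was not tested, and the 16 h library is the one in which the depths were closest.

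Apoa4 was the most portal of these genes. In the 16 h library it had 166 CPM in the portal, 141 in the middle and 64.4 in the central part, a log2 ratio of central to portal of -1.36 (-1.49 to -1.24). The log2 ratios were -0.94 in the fed library and -2.00, -1.21 and -1.12 after 4, 8 and 24 h. All 5 were negative in each of 16 other settings. Among hepatocytes with 10 to 20% mt- UMIs and 3000 to 10000 UMIs, the ratio was -0.36 in the fed library and -0.03 at 24 h. The higher level at 24 h was seen along the whole axis, with log2 ratios to fed of 1.17 in the portal, 1.01 in the middle and 1.0 in the central part.

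Apoc2 came next. In the 16 h library it had 470 CPM in the portal, 465 in the middle and 250 in the central part. Its log2 ratio of central to portal was -0.49 in the fed library and -1.07, -0.97 and -0.91 after 4, 8 and 16 h, negative in each of 16 other settings. At 24 h it was 0.11, and that sign flipped in 4 settings. Against the fed library, Apoc2 at 24 h had log2 ratios of 0.28 in the portal, 0.37 in the middle and 0.88 in the central part. The limit given for the same ratios of Apoa4 holds here too. Apoa1 leaned portal in the 4 h (-0.62) and 8 h (-0.59) libraries in all 16 other settings, and was within 0.14 of 0 in the other 3 libraries as reported here. Over other settings it ran from -0.65 to 0.13 in the fed library and from -0.92 to 0.75 at 24 h.

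The other genes were near level along the axis in the 16 h library, and some were not at 24 h. At 16 h the log2 ratios of Apoa2, Apoa5, Apob, Apoc1, Apoc3, Apoe and Apom lay between -0.10 and 0.16. Apob was negative in all 5 libraries (-0.25, -0.38, -0.45, -0.10 and -0.63), with a change of sign in 1 setting at 8 h. At 24 h Apoa2 had 10087 CPM in the portal and 16306 in the central part, a log2 ratio of 0.69, and Apoe had 13446 and 19954, a log2 ratio of 0.57. In that library 38.7% of central but 21.1% of portal hepatocytes had under 460 genes in 800 UMIs. Without these cells the ratios of Apoa2 and Apoe were 0.46 and 0.32. Over the 16 other settings Apoa2 ran from 0.06 to 1.48, and Apoe from -0.60, where its direction turned with 0 to 30% mt- UMIs, to 1.35. Apom at 24 h had 172 CPM in the portal and 244 in the central part, a log2 ratio of 0.50 that turned to -0.51 in the same setting. Apoa5 at 24 h leaned the other way, with 1942 CPM in the portal and 1333 in the central part. Its log2 ratio of -0.54 was negative in all 16 other settings, between -1.54 and -0.04.

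At a threshold of 1.5-fold between the central and the portal part, 1 of 10 genes was portal in the fed library (Apoa4), against 1.66% of all genes, and 0 were central, against 3.85%. At 4 h and at 8 h, 3 of 10 were portal (Apoa1, Apoa4 and Apoc2), against 4.03% and 1.74%, and 0 central, against 6.31% and 3.88%. Apoa1 was no longer called in 7 of 16 other settings at 4 h and in 7 at 8 h, and Apoc2 in 3 at 4 h, with 2 to 15% mt- UMIs, the mean of per-cell CPM and thinned cells. At 16 h, 2 of 10 were portal (Apoa4 and Apoc2), against 2.57%, and 0 central, against 5.49%, and both calls were kept in all 16 other settings. At 24 h, 2 of 10 were portal (Apoa4 and Apob), against 13.9%, and 1 central (Apoa2), against 15.5%. Apoa4 was no longer called in 4 of 16 other settings in the fed library and in 4 at 24 h, Apob in 7 and Apoa2 in 4 at 24 h. Among 24 h hepatocytes with 10 or more Cyp2e1 plus Cyp2f2 UMIs, 0 of the 10 genes were called. Of 2691 genes, 18 were central and 1 portal there. Cyp2e1 itself was at 2590 CPM in the central part at 24 h, the lowest of the 5 libraries (4465 to 8831 in the others). At 24 h 8 of the 12 central landmark genes that passed 50 CPM, Cyp2e1 among them, were called 2-fold lower than in the fed library, against 10.6% of all genes. Of these calls, those of Cyp2e1, Cyp2a5 and Rgn were lost in some setting, where their log2 ratios of -1.56, -2.13 and -1.49 came to -0.69, -0.85 and -0.92.

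**Figure D4:**
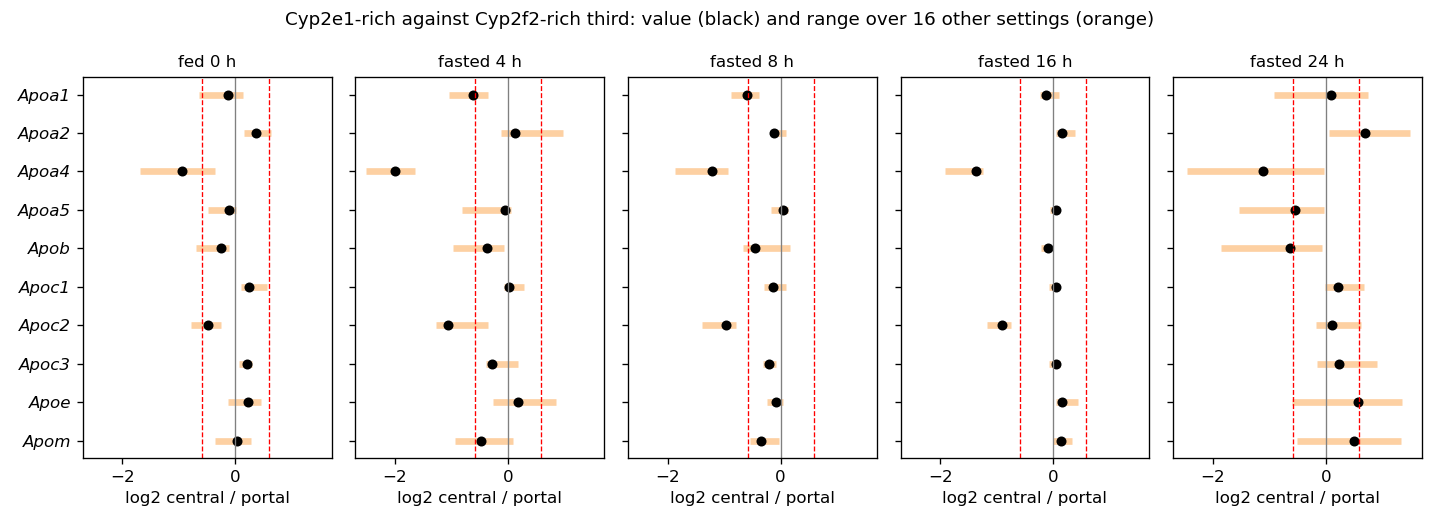
Log2 ratio of CPM between the Cyp2e1-rich (central) and the Cyp2f2-rich (portal) part of each library (black points), with the range over 16 other settings (orange bars), where red dashed lines mark 1.5-fold. Apoa4 is left of 0 in each library, and the bars of the genes other than Apoc2 are widest at 24 h.

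Barcodes with almost no mitochondrial transcripts were left out of the hepatocytes, and they held the 10 messages in other proportions. Against hepatocytes with 10 to 20% mt- UMIs of the same library, barcodes under 1% had less Apob, with log2 ratios between -3.20 and -1.92 over the 5 libraries, and less Apoa4, between -3.23 and -1.83. Apoe lay between -1.92 and -0.54. Apoc1, in contrast, was between 0.09 and 1.29, and Apoa2 between -0.01 and 0.96. The median over 2021 genes was itself below 0, at -0.48, -0.61, -1.04, -0.37 and -0.6 in time order. The order followed transcript length, from Apob (13934 bases) to Apoa2 (518 bases), with Spearman's rho across the 10 genes of -0.75 in the fed library and -0.87, -0.93, -0.85 and -0.88 after 4, 8, 16 and 24 h. Across 2021 genes rho was -0.51 to -0.64, and genes of 1 library are not independent replicates. Where all barcodes under 2% mt- UMIs that met the other limits were added to the hepatocytes, neither Apoa4 nor Apoa5 was called at 24 h.

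**Figure D5:**
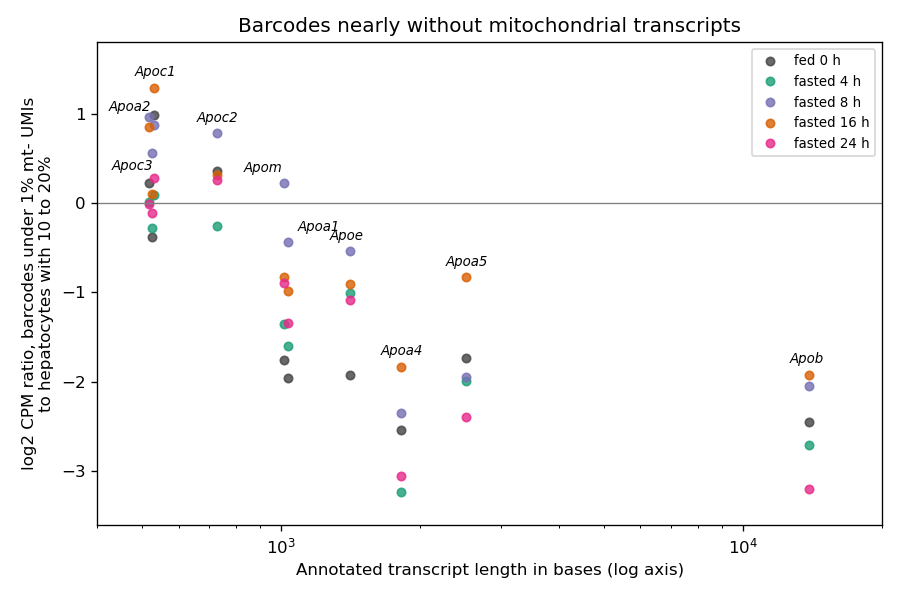
Log2 ratio of CPM between barcodes under 1% mt- UMIs and hepatocytes with 10 to 20%, by annotated transcript length (log axis), for 10 genes and 5 libraries (colours). The short messages Apoc1, Apoa2, Apoc2 and Apoc3 lie near or above 0, and Apob and Apoa4 lie at -1.83 or below in each library.

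Other genes of lipoprotein biology were followed in 5 lists, with the same call of 2-fold at 50 CPM. Among 20 genes of lipoprotein assembly and secretion, 14 were measured at 50 CPM or more in either library of each comparison with fed, and 0 were called higher at any time. Over all genes, 5.85%, 8.07%, 3.38% and 6.76% were higher at the 4 times and 5.91%, 11.7%, 4.09% and 10.6% lower. Pdia3 was lower at all 4, alone but for Dgat2 at 16 h, at 4 h by a log2 ratio of -1.11 that came to -0.98 in one setting. Dgat2, which makes triglyceride and is named here after its values were seen, had 751 CPM in the fed library and 349 at 16 h, a log2 ratio of -1.11. Pdia3, a disulfide isomerase of the endoplasmic reticulum, had 638 CPM in the fed library and 295, 153, 267 and 192 afterwards. Mttp, which loads lipid onto Apob, was not called, with 279, 231, 202, 287 and 210 CPM. Apobec1, the editor of Apob mRNA, was at 10.6 CPM or less in each library.

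Angptl4 and Angptl8, secreted regulators of lipoprotein lipase, had wider ranges than any of the 10 apolipoprotein genes. Angptl4, an inhibitor of the lipase in fasting, had 9.41 CPM in the fed library and 130, 334, 79.3 and 136 after 4, 8, 16 and 24 h. Angptl8, made after feeding, had 503, 35.4, 24.0, 129 and 32.6 CPM. The fed library was thus the lowest for the first and the highest for the second. Of the plasma enzymes and transfer proteins, the following were not called: Lcat, which esterifies cholesterol on high-density lipoprotein, had 165 to 252 CPM, hepatic lipase Lipc 36.5 to 54.7 CPM, and the transfer protein Pltp at most 4.29 CPM.

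Among receptors and efflux pumps, Abca1, which loads lipid onto Apoa1, was called lower at 4, 8 and 24 h. It had 405 CPM in the fed library and 162, 83.4, 265 and 121 after 4, 8, 16 and 24 h. The 8 h library was the lowest and the 16 h library the nearest to fed. Scarb1, the receptor for high-density lipoprotein, had 43.9, 78.9, 60.4, 68.8 and 88.1 CPM and was called at 24 h alone, at a log2 ratio of 1.01 that was 0.55 at its lowest setting. The sterol pump gene Abcg8 had 21.8, 45.1, 58.1, 67.5 and 72.6 CPM and was called higher at 8, 16 and 24 h. At 4 h it was also more than 2-fold above fed, but neither library reached the minimum of 50 CPM.

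Of 23 transcription factor genes with known roles at apolipoprotein promoters, 16 or 17 were measured against fed at each time. In time order 2 of 17, 2 of 16, 3 of 17 and 2 of 16 were called higher, against 5.85%, 8.07%, 3.38% and 6.76% of all genes, and 1, 3, 2 and 3 lower, against 5.91%, 11.7%, 4.09% and 10.6%. Srebf1, the factor of insulin-driven lipid synthesis, was lower throughout, with 441 CPM in the fed library and 88.3, 23.0, 64.1 and 70.9 afterwards. Foxo1, which insulin holds out of the nucleus, had 29.0, 80.9, 96.0, 34.2 and 70.0 CPM, called higher at 4, 8 and 24 h, where the 24 h log2 ratio of 1.27 was 0.86 at its lowest setting. Hnf4a, an activator of many of the 10 genes, had 281, 427, 574, 263 and 331 CPM and was called at 8 h, at a log2 ratio of 1.03 that was 0.92 at its lowest setting. Creb3l3, a fasting-activated factor known to act on Apoa4 and Apoa5, had 211, 262, 379, 264 and 334 CPM, with log2 ratios to fed of 0.32, 0.85, 0.32 and 0.66 that were not called. Mlxipl, which senses glucose, had 172, 109, 91.7, 74.4 and 61.9 CPM, called lower at 16 and 24 h. Nr2f2 had 56.0, 31.6, 23.7, 156 and 64.5 CPM, lower at 8 h, at a log2 ratio of -1.24 that came to -0.89 in one setting, and higher at 16 h.

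Among 14 other apolipoprotein and apolipoprotein-like genes, 9 were measured, and Saa1 and Saa2 were the ones with the widest swings. Saa1 had 385, 1148, 37.9, 4887 and 21.1 CPM, and Saa2 219, 1086, 12.8, 4953 and 9.68 CPM, higher than fed at 4 and 16 h and lower at 8 and 24 h. Saa4, the constitutive member of that family, had 437, 432, 422, 140 and 190 CPM, called lower at 16 and 24 h. The acute-phase gene Orm2 had 75.2, 54.1, 13.1, 121 and 21.7 CPM, lower at 8 and 24 h.

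For the 2 apolipoprotein genes that ranged by 2-fold or more, the genes with the most similar profile over the 5 libraries were sought among 2677 genes of 50 CPM or more, by the root mean square distance of centred log2 CPM. For Apoa4 these were Slc25a10 (distance 0.175), Gsta2 (0.176) and Bri3 (0.176). Slc25a10 had 128, 144, 142, 94.8 and 267 CPM, with 24 h the highest as for Apoa4. For Apoa5 these were Cisd1 (0.0726), Etfrf1 (0.0865) and H2afv (0.106). Cisd1 had 248, 426, 417, 334 and 554 CPM, with the fed library the lowest and 24 h the highest. With 5 libraries, likeness of profile is a description.

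Gene models that overlap the 10 genes could share reads with them. The antisense models Gm10680 at Apoa4 and Gm47544 at Apoa5 were at 0.461 CPM or less in each library. Gm44805, which overlaps Apoc2 on the same strand, was not among the genes of the matrix, and how its reads were counted was not stated.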

How the data were processed

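UMI counts per gene and barcode, not normalized, were used as the authors deposited them, for 5 libraries of isolated liver hepatocytes made with 10x Genomics 3′ v3 chemistry per the labels' protocols. Cell Ranger 6.0.1 and the build mm10 are named in the submitters' processing notes, and no source at hand names the annotation version or any subsampling. Of 32285 gene IDs, 32158 (99.6%) were found in GENCODE M21. The 10 genes, the lists, markers, thresholds and the naming rule were chosen with earlier results of these data known.

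Barcodes entered with at least 1000 UMIs, 500 genes and 2 to 30% mt- UMIs, and with under 1% of non-mitochondrial UMIs in each list of other cell types' markers (5% for erythroid markers). No doublet caller was run, and doublets may remain. In total 28544 of 50000 barcodes were used. UMIs were summed per library and divided by non-mitochondrial UMIs (CPM). Intervals are exact Poisson (CPM), Clopper-Pearson (shares) and conditional binomial (ratios), at 95%, and cover counting error only. The 3 parts of the axis were cut by (Cyp2e1 + 0.5)/(Cyp2e1 + Cyp2f2 + 1). In drawing 1000 UMIs per cell, 4, 25 and 117 shallower hepatocytes were left out at 4, 8 and 16 h. Named were the 10 genes, 12 pathway genes always, other list genes called at 2 or more of the 4 times against fed, and 3 nearest profiles for each of the 10 genes with a log2 range of 1 or more. Results for some of the listed pathway genes, and counts over the lists that hold them, are not reported here. The call code was tested on simulated data. Software was R 4.3.3 with edgeR 4.0.16 (TMM factors only) and python 3.11.15 with scipy 1.17.1, numpy 2.4.6, matplotlib 3.10.9 and pandas 2.3.3. Other settings changed the denominator, scaling, cells, weighting, free RNA, minimum, threshold and zones.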

Additional observations from a re-analysis of the deposited data

How the results depend on the processing

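Counts of genes called among the 10 are given here where they moved by over 1.5 times, each with the share of all genes called the same way in that setting. Against fed, a 1.5-fold threshold called 1 higher at 4 h (13.8%), 1 higher (18.1%) and 1 lower (23.1%) at 8 h and 2 lower at 16 h (13.2%). TMM and median-of-ratios scaling each called 1 higher at 8 h (Apoa5; 11% each). The 2 called at 24 h became 0 with 0 to 30% (10.1%) or 2 to 15% mt- UMIs (9.79%). They became 1 (Apoa5) with 10 to 20% mt- UMIs (7.83%), with these and 3000 to 10000 UMIs (5.51%), and with 460 or more genes in 800 UMIs (7.22%), 3 settings chosen after seeing the data. Between 4 and 8 h, 1 was higher (Apoa1) with all UMIs in the denominator (2.16%), 0 to 30% mt- UMIs (1.55%) or 1.5-fold (5.47%). Between 8 and 16 h, 1 was lower (Apoc1) with all UMIs (12.1%), TMM (14.0%), median of ratios (13.2%) or 10% free RNA subtracted (11.1%), and 2 at 1.5-fold (21.8%). Between 16 and 24 h, 2 were higher with TMM (9.71%), median of ratios (9.63%) or 2 to 15% mt- UMIs (12.6%), and 0 with 0 to 30% mt- UMIs (15.3%). There 5 were higher with 3000 to 10000 UMIs (5.48%; 5.56% with 10 to 20% mt- UMIs too), 4 with the mean of per-cell CPM (10.4%) or thinned cells (10.5%), and 7 at 1.5-fold (18.5%).

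Along the lobule axis, the portal count in the fed library was 3 with 0 to 30% mt- UMIs (8.04%). It was 2 with 460 or more genes (1.74%), the outer 2 of 5 parts (3.04%), a landmark score (2.10%) or 10 or more Cyp2e1 plus Cyp2f2 UMIs (1.47%). It was 0 with 3000 or more UMIs (0.784%), 3000 to 10000 UMIs (0.753%), 10 to 20% mt- UMIs (0.866%; 0.539% with that depth) or 2-fold (0.671%). The landmark score called 1 central there (4.51%). At 4 h, 5 were portal with 0 to 30% mt- UMIs (11.8%), and 2 were central with the mean of per-cell CPM (15.7%), thinned cells (16.5%) or 10 to 20% mt- and 3000 to 10000 UMIs (14.1%). A 2-fold threshold left 1 portal at 8 h (0.628%) and at 16 h (0.834%). At 24 h the shares of all genes moved most with the setting. The central count was 0 with 0 to 30% mt- UMIs (30.1%), 3000 or more UMIs (3.87%), 460 or more genes (12.8%), 10 or more Cyp2e1 plus Cyp2f2 UMIs (0.669%) or 2-fold (6.23%). It was 2 with 2 to 15% mt- UMIs (24.8%) or all UMIs (19.1%). It was 3 with 10 to 20% mt- UMIs (4.50%), the mean of per-cell CPM (23.4%), thinned cells (23.7%) or the landmark score (7.74%), and 7 with 10 to 20% mt- and 3000 to 10000 UMIs (12.1%). The portal count at 24 h was 5 with 0 to 30% mt- UMIs (37.1%). It was 0 with 3000 or more UMIs (0.552%), 10 to 20% mt- UMIs (1.84%; 32.4% with that depth) or 10 or more Cyp2e1 plus Cyp2f2 UMIs (0.0372%), and 1 with the landmark score (5.86%), all UMIs (8.64%) or 2-fold (0.711%). Smaller moves of the portal count were to 3 at 24 h with 2 to 15% mt- UMIs (44.9%), the mean of per-cell CPM (40.3%) and thinned cells (39.9%), and to 4 at 8 h with 0 to 30% mt- UMIs (5.12%) and at 4 h with the outer 2 of 5 parts (4.39%), among others. Except where a threshold or the choice of barcodes made the difference, the cause was not tested.

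The counting intervals are far narrower than these ranges. Of the log2 ratios between libraries, 876 lay outside the counting interval of the reported value and 244 within it. Of the zone ratios, 511 lay outside and 289 within. Both tallies pool abundant and rare apolipoprotein genes and all settings, so they do not single out depth, whose part was not tested. Shares of cells with Apoa4, Apom or Apoc2 remain limited by the depth of 1000 UMIs. No called single ratio changed sign. No paired analysis was possible because each time label is 1 library without a replicate number.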
